A study of Mus musculus with 8 samples.

Results

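The genes described here are *Ins1*, *Ins2* and *Iapp*, chosen by name as the 3 hormone genes whose products the β-cell stores together, out of 19945 genes in the count table. They were followed through all 12 cell classes of the deposited annotation in both libraries. Islets came from C57BL/6 wild type mice that were 6 to 12 weeks old at the start. The FAKi group was gavaged for 3 weeks with PF562271, an inhibitor of focal adhesion kinase, in 2 daily doses of 50 mg/kg, and the Vehicle group received the vehicle alone. Islets were handpicked 10 days after the last dose and pooled from 5 mice per group. Each pool gave 1 droplet library of the 3′ chemistry, and the 8 deposited samples are 4 sequencing lanes of each. Since each condition rests on a single library, no difference between them could be tested over samples, and the exact 95% intervals given with the values cover counting error only.

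The Vehicle library held 3776 cells and 59514118 unique molecular identifiers (UMIs), and the FAKi library 3183 cells and 57836783 UMIs. The 2 libraries shared 4 cell barcodes. β-cell markers were highest in the β class of both libraries, and the *Ppy* transcript of pancreatic polypeptide cells was highest in the class named δ, so that class holds more than somatostatin cells. The FAKi class named T cell was mixed. Its T-cell markers were still higher than in any other FAKi class, but they summed to 108 CPM, the UMIs of a gene scaled to a fixed total per class, against 1448 CPM in the Vehicle class, and its β-cell markers to 1329 CPM. In that class 12 of 28 droplets drew at least 10% of their UMIs from *Ins1* and *Ins2*, and such droplets are called insulin-rich here. Outside the β and acinar classes, the class sums discussed below are given with and without them, and the acinar 1 values and the likeness over classes keep them.

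Insulin lowers blood glucose by driving its uptake into muscle and fat. Mice carry a pair of insulin genes: *Ins2* is the ancestral gene, and *Ins1* arose from it by retroposition and lost an intron. Both proinsulins are cut by the prohormone convertases PCSK1 and PCSK2 and by carboxypeptidase E, and the hormone is packed with zinc in dense granules. *Iapp* encodes amylin, a peptide that slows gastric emptying and promotes satiety, which is co-secreted with insulin. Amylin is also made by somatostatin cells in some species. The calcitonin receptor together with RAMP proteins binds amylin.

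The gene models explain how far the counts of the paralogs can be told apart. On GRCm38 (mm10), *Ins1* (ENSMUSG00000035804.5) lies on the plus strand of chromosome 19, from 52264297 to 52265476, and its transcript of 1062 bases has 2 exons, of which 1 is coding. *Ins2* (ENSMUSG00000000215.11) lies on the minus strand of chromosome 7, and its transcript used here spans 142678659 to 142679726 with 3 exons, of which 2 are coding, in 478 bases. *Iapp* (ENSMUSG00000041681.2) lies on the plus strand of chromosome 6, from 142298423 to 142303961, with 3 exons, of which 2 are coding, in 839 bases. The last stretches of the insulin coding sequences are 95.2% identical. They are shown here because 3′ reads lie toward this end, and capitals mark the 5 bases that differ. The *Ins1* stretch is chr19:52264846-52264950 on the plus strand and the *Ins2* stretch chr7:142678713-142678817 on the minus strand, and both end with the stop codon.
Ins1: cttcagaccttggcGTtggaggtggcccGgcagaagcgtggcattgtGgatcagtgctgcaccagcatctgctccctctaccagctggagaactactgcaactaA
Ins2: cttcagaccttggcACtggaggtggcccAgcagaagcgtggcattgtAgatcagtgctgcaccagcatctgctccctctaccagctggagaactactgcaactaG

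After the stop codon the transcripts part, with 526 bases left in *Ins1* and 54 in *Ins2*. Of 965 windows of 98 bases (the read length) along the *Ins1* transcript, 1 matched *Ins2* within 2 mismatches and 0 matched it exactly. In the last 400 bases of *Ins1*, 0 of 303 windows did, and the closest had 57 mismatches. In the last 400 bases of *Ins2*, 1 of 303 windows matched *Ins1* within 2 mismatches. Reads that cover only the shared stretch could still have been split between the genes, since how the counting treated them is not given in the sources used here. Each UMI stands for 1 captured molecule of any length, so levels are compared between genes as UMIs, without division by length.

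The 250 bases before the start of *Ins1* and *Iapp* are shown because TAAT cores, the core letters of homeodomain sites such as those of PDX1 and NKX6-1, and the E-box letters CATCTG, which NEUROD1 can bind, stand in both. They come from RefSeq on GRCm38.p6, plus strand, chr19:52264047-52264296 for *Ins1* and chr6:142298175-142298424 for *Iapp*. Of the 3 genes, 2 had an entry, and *Ins2* is named only. Capitals mark TAAT or its reverse ATTA, which may overlap, and CATCTG or its reverse CAGATG.
Ins1: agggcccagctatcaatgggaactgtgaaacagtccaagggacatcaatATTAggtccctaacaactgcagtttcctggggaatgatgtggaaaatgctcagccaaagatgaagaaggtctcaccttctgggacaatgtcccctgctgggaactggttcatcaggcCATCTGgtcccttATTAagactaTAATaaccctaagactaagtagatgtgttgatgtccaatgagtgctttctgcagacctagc
Iapp: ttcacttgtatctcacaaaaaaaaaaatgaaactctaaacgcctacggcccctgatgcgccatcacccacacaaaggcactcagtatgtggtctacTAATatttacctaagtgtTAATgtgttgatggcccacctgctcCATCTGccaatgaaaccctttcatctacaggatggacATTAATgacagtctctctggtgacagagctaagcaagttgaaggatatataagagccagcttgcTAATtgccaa

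The *Ins1* window held 3 matches to TAAT and the *Iapp* window 5, and each held 1 match to CATCTG. Across 32851 promoters of the same length, 54.92% held a TAAT and 17.26% held 3 or more, and 14.44% held a CATCTG on either strand. A match is a description of the letters and not a bound site.

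In β-cells the members were the 3 most abundant transcripts of both libraries. The β class held 1076 Vehicle and 1336 FAKi cells, with a median of 30792.5 and 30427.5 UMIs per cell. *Ins2* had rank 1, at 394857 CPM (95% interval 394643 to 395070) in Vehicle and 404454 CPM (404253 to 404656) in FAKi. *Ins1* had rank 2, at 157500 CPM (157365 to 157635) and 154850 CPM (154726 to 154975). *Iapp* had rank 3, at 35596 CPM (35532 to 35661) and 41359 CPM (41294 to 41423). The order was the same in both libraries, and no 2 of these intervals met within a library.

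The median β-cell of the Vehicle library carried 11965 UMIs of *Ins2*, 4649 of *Ins1* and 967.5 of *Iapp*. In the FAKi library the medians were 12334.5, 4196 and 1136.5 UMIs. *Ins2* took a median 39.9% of a Vehicle β-cell's UMIs, and from the 10th to the 90th percentile of cells it ran from 31.6% to 43.9%. In FAKi β-cells the median was 40.5%, from 32.7% to 45.0%. The spread over cells was widest for *Iapp*. Its coefficient of variation over cells was 0.351 in Vehicle and 0.298 in FAKi, against 0.233 and 0.246 for *Ins1* and 0.173 and 0.158 for *Ins2*. Across all cells of a library, 34.5% of the Vehicle UMIs and 41.6% of the FAKi UMIs came from the 3 genes. β-cells supplied 95.6% and 96.2% of the *Ins2* UMIs.

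**Figure D1:**
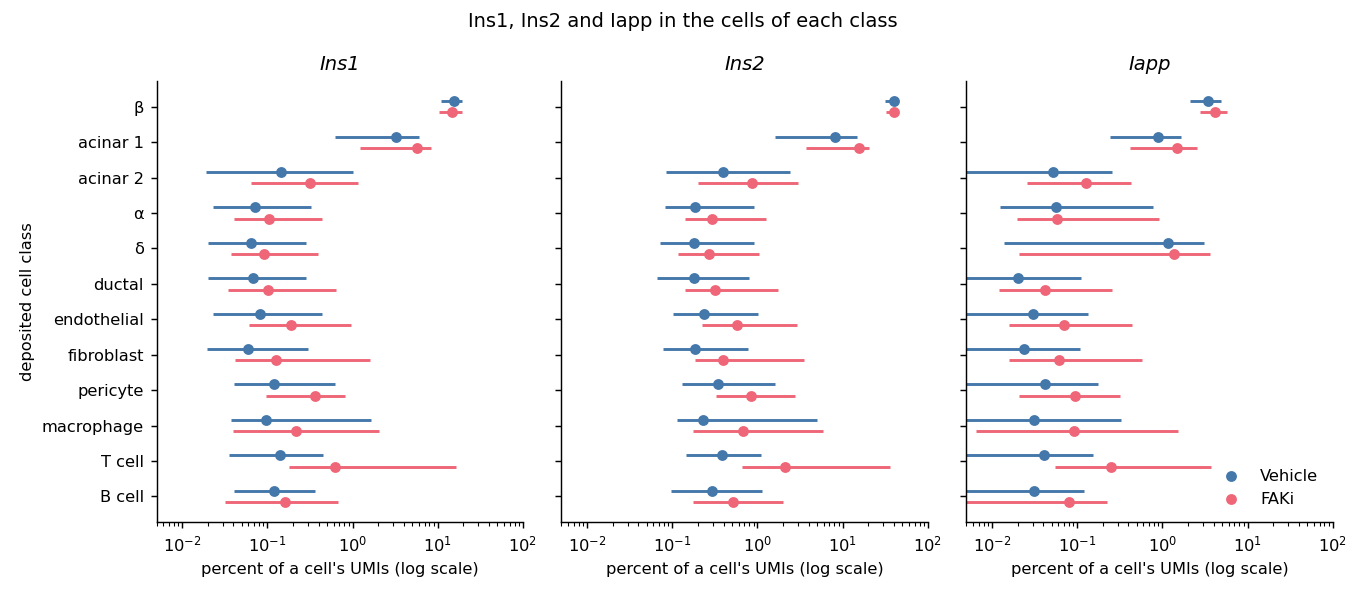
Percent of a cell's UMIs from Ins1, Ins2 and Iapp (log axis) in the 12 deposited classes, with Vehicle in blue and FAKi in red. Points are medians over cells and bars run from the 10th to the 90th percentile. β-cells stand highest for all 3 genes, with median Ins2 shares of 39.9% and 40.5%, and δ-cells hold median Iapp shares of 1.17% and 1.37% beside Ins2 shares of 0.180% and 0.272%.

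The deposited β-cell clusters differed more in depth than in these levels. Clusters 0 and 1 held *Ins2* at 401354 and 401439 CPM in Vehicle, with a median depth of 34677 and 20070 UMIs. Cluster 10, of 121 Vehicle and 115 FAKi cells, was lower for both insulin genes. Its *Ins2* stood at 337886 CPM in Vehicle and 333548 in FAKi, and its *Ins1* at 133080 and 130447 CPM. In the same cluster *Gcg* (glucagon) reached 10276 and 11956 CPM and *Sst* (somatostatin) 7015 and 8457 CPM, and 12 and 18 of its insulin-rich droplets were called doublets. What part those droplets had in the lower level was not tested.

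A few droplets of the β class drew a small share of their UMIs from insulin RNA. Below the insulin-rich limit were 10 of 1076 Vehicle and 4 of 1336 FAKi droplets. Their leading genes are named here after their values were seen. In Vehicle, 5 were led by the haemoglobin gene *Hbb-bs*, 3 by the immunoglobulin gene *Igkc* and 2 by *Malat1*, a nuclear long non-coding RNA, and they held 7 to 40 *Ins2* UMIs. In FAKi, 1 was led by *Iapp* itself, with 689 *Iapp* and 35 *Ins2* UMIs. Another, led by *Pyy* (peptide YY), held 1417 *Iapp* and 220 *Ins2* UMIs. One led by *Malat1* held 1276 *Ins1* and 143 *Ins2* UMIs, which is 5.74% of its UMIs from the insulin genes, and one led by *Hbb-bs* held 28 *Ins2* UMIs. More *Iapp* than *Ins2* UMIs were found in 4 FAKi and 0 Vehicle cells of the β class.

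For every *Ins2* UMI the β-cells held 0.399 *Ins1* UMIs in Vehicle (0.398 to 0.399) and 0.383 in FAKi (0.383 to 0.383). The FAKi ratio was 0.960 times the Vehicle ratio (0.959 to 0.961). It was lower in each β-cell cluster, at 0.404 and 0.391 in cluster 0, 0.385 and 0.362 in cluster 1, and 0.394 and 0.391 in cluster 10. By depth, the ratio was lower in FAKi in each range below 40000 UMIs and higher only above it. Among β-cells of 20000 to 40000 UMIs the ratio was 0.386 in Vehicle and 0.360 in FAKi, while among those above 40000 UMIs it was 0.414 and 0.426.

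Single β-cells kept *Ins1* within a narrow part of their insulin RNA. The median share of *Ins1* among a cell's insulin UMIs was 28.4% in Vehicle, from 23.4% at the 10th to 32.8% at the 90th percentile. In FAKi it was 27.2%, from 21.5% to 31.9%. The standard deviation over cells was 4.21 and 5.25 percentage points, above the 0.881 and 0.696 points that counting alone would give. Among insulin-rich β-cells, 1050 of 1066 in Vehicle and 1319 of 1332 in FAKi lay between 15 and 40%.

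Of these insulin-rich cells, below 10% lay 3 Vehicle and 2 FAKi cells, and above 50% lay 0 and 3. These 8 cells were singled out after their values were seen, and none of them was called a doublet. One FAKi cell of cluster 0 held 13189 *Ins1* and 570 *Ins2* UMIs, a share of 95.9%, among 54139 UMIs in all. Another held 11416 and 1735, a share of 86.8%. The third held 2148 and 2137, a share of 50.1%. Among insulin-rich Vehicle cells the highest share was 46.7%. At the low end, a Vehicle cell of cluster 10 held 232 *Ins1* and 5208 *Ins2* UMIs, a share of 4.26%. A FAKi cell of cluster 10 held 210 and 3463, a share of 5.72%.

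**Figure D2:**
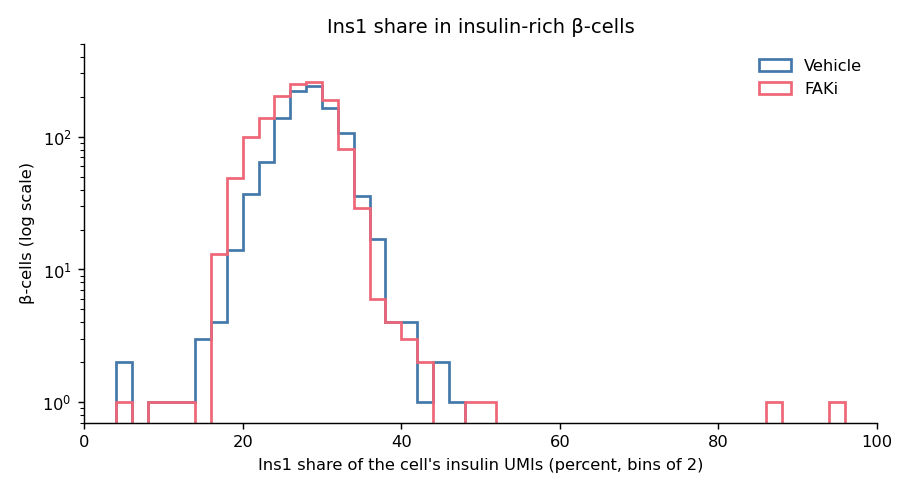
Number of insulin-rich β-cells (log axis) by the Ins1 share of the cell's insulin UMIs, in bins of 2 percentage points, for Vehicle (blue, 1066 cells) and FAKi (red, 1332 cells). Nearly all cells lie between 15 and 40%, and 3 FAKi cells lie above 50%.

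Across β-cells the shares of *Ins1* and *Ins2* went together more closely than either did with *Iapp*. Over 1076 Vehicle and 1336 FAKi cells, Spearman's rho between the percent of UMIs of *Ins1* and *Ins2* was 0.825 and 0.817. It was 0.429 and 0.345 between *Iapp* and *Ins2*, and 0.268 and 0.237 between *Iapp* and *Ins1*. These cells share a library, and their shares are parts of 1 total. *Iapp* per *Ins2* also moved with depth. Vehicle β-cells under 2000 UMIs held 0.134 *Iapp* UMIs per *Ins2* UMI, and those of 20000 to 40000 UMIs 0.0869. In FAKi the values were 0.141 and 0.0995.

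Between the conditions, β-cell *Iapp* was the member that differed most. The FAKi over Vehicle ratio of CPM was 1.16 for *Iapp* (1.16 to 1.16), 1.02 for *Ins2* (1.02 to 1.03) and 0.983 for *Ins1* (0.982 to 0.984). The direction of *Ins1* turned over a total without hormone genes, at 1.01, and in cells under 5% mitochondrial counts, at 1.002. *Iapp* was above 1 in each β-cell cluster, at 1.17 in cluster 0, 1.10 in cluster 1 and 1.19 in cluster 10. *Iapp* per 100 *Ins2* UMIs was 9.02 in Vehicle and 10.2 in FAKi, 1.13 times higher (1.13 to 1.14). The median share of a cell's UMIs was 3.45% in Vehicle and 4.13% in FAKi for *Iapp*, and 15.6% and 14.8% for *Ins1*. None of the 3 genes passed 1.5-fold. Of 11059 genes with at least 100 UMIs in β-cells, 1.21% were more than 1.5-fold higher and 3.1% more than 1.5-fold lower in FAKi, and the median log2 ratio was -0.04. With 1 pool of mice per condition, a difference between treatments and one between pools cannot be told apart.

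The regulators of the insulin genes were listed beside them. All 10 of 10 passed the count filter, 0 were past 1.5-fold in either direction, and their median log2 ratio (pseudocount 1 CPM) was -0.12. Over all genes tested it was -0.05 on that scale. *Mafa*, a leucine zipper activator of insulin transcription in mature β-cells, stood at 700 CPM in Vehicle and 566 CPM in FAKi, a ratio of 0.808 (0.793 to 0.823). *Nkx6-1*, a homeodomain factor that keeps β-cell identity, stood at 309 and 266 CPM, a ratio of 0.860 (0.837 to 0.884). *Pdx1*, which binds the insulin and amylin promoters, stood at 141 and 134 CPM, a ratio of 0.954 (0.917 to 0.993). *Isl1* was highest of the list at 1.16 and *Nkx2-2* lowest at 0.785. Summed, the list held 4.47 UMIs per 1000 *Ins2* UMIs in Vehicle and 3.87 in FAKi.

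Genes that process and store the hormones were closer to unity. Of 11 tested, 0 passed 1.5-fold, and the median log2 ratio was -0.03. The convertases *Pcsk1* and *Pcsk2* stood at 0.893 and 0.890, and the granule zinc transporter *Slc30a8* at 1.09. The granins, which help to form dense granules, lay at both ends, with *Chgb* at 0.740 and *Scg2* at 1.13. Of 7 glucose-sensing genes, 1 was past 1.5-fold lower and 0 higher. This was *G6pc2*, whose product opposes glucokinase, at 574 and 381 CPM with a ratio of 0.664 (0.649 to 0.678). The interval spans the limit. In cluster 0 the ratio of 0.672 did not pass it, while those of 0.653 in cluster 1 and 0.623 in cluster 10 did. *Slc2a2*, the glucose transporter GLUT2, stood at 0.919. Of 7 receptor and degradation genes, 6 were in the table and 5 had enough UMIs, and none passed 1.5-fold. The insulin receptor *Insr* stood at 1.06 and the insulin-degrading enzyme *Ide* at 0.778. *Calcr*, the core of the amylin receptor, was not listed.

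Outside β-cells, amylin and insulin RNA parted in the islet's somatostatin cells. The class named δ had 328 Vehicle and 358 FAKi cells. Its *Iapp* stood at 10957 CPM in Vehicle and 12665 CPM in FAKi, rank 6 among its transcripts in both libraries. Per 100 *Ins2* UMIs, δ-cells held 137 *Iapp* UMIs in Vehicle and 253 in FAKi, and α-cells held 77.6 and 65.5. Without insulin-rich droplets, the δ-cell values were 580 in Vehicle and 481 in FAKi, so the order of the libraries turned. The other 10 classes lay between 8.19 and 14.6 in Vehicle and between 8.86 and 14.7 in FAKi. Without insulin-rich droplets, the 7 of them that are neither β nor acinar reached 26.3 in Vehicle (T cells) and 21.7 in FAKi (macrophages). A single droplet held 55.9% of the *Iapp* UMIs of the former and 48.1% of those of the latter, and when the droplet with the most *Iapp* was left out of each class and library the 7 classes lay between 9.49 and 14.3 in Vehicle and between 9.74 and 14.5 in FAKi.

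The 2 deposited δ clusters separated this signal. Cluster 6 was led by *Sst*, at 213487 CPM in Vehicle and 219821 CPM in FAKi, with 188 and 195 cells. In it *Iapp* was the third most abundant transcript, at 19135 CPM and 23403 CPM. The median cell held 161.5 *Iapp* and 21 *Ins2* UMIs in Vehicle, and 247 and 37 in FAKi. The FAKi over Vehicle ratio of *Iapp* in cluster 6 was 1.22 (1.21 to 1.24). Cluster 8 was led by *Ppy*, at 278292 and 263888 CPM, with 140 and 163 cells. Its median cell held 5 *Iapp* UMIs in Vehicle and 8 in FAKi.

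α- and δ-cells were also sorted by their most abundant hormone other than the members. This sort was chosen after the values were seen. It uses hormones of the same cells, so it is not separate support for the split between clusters. The sort uses *Gcg*, *Sst*, *Ppy* and *Pyy* and asks for at least 20 UMIs of the leading one. *Sst*-led cells, 242 in Vehicle and 268 in FAKi, held a median of 153 and 223 *Iapp* UMIs, or 1.73% and 2.14% of their UMIs. More *Iapp* than *Ins2* UMIs were found in 227 (93.8%, 89.98 to 96.5) and 250 (93.3%, 89.6 to 96.0) of them. *Gcg*-led cells, 234 and 401, held a median of 5 and 7 *Iapp* UMIs, or 0.0502% and 0.0517%. Of these, 30 (12.8%, 8.82 to 17.8) and 10 (2.49%, 1.20 to 4.54) had more *Iapp* than *Ins2*. *Ppy*-led cells, 94 and 97, held a median of 4 and 7 *Iapp* UMIs.

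Within the class named α, *Iapp* was again highest in cells led by somatostatin RNA. There 31 Vehicle and 48 FAKi cells were *Sst*-led, and they held a median of 143 and 144.5 *Iapp* UMIs. The *Gcg*-led cells of that class held 5 and 7. α cluster 9, where *Sst* stood at 58406 and 45730 CPM, held *Iapp* at 7348 and 8183 CPM, and α cluster 5 held 678 and 522 CPM. A single *Sst*-led α cell of the FAKi library carried 4098 *Iapp* UMIs, which is 26.0% of all *Iapp* UMIs of that class and 30.4% of those of cluster 9. Without the droplet with the most *Iapp* in each library, cluster 9 held 6979 CPM in Vehicle and 5822 CPM in FAKi, so the order of the libraries turned, and the whole class held 74.3 and 48.7 *Iapp* UMIs per 100 *Ins2* UMIs. Over δ-cells, Spearman's rho between the shares of *Iapp* and *Sst* was 0.788 in Vehicle (328 cells) and 0.766 in FAKi (358 cells). It was 0.208 and 0.282 between *Iapp* and *Ins2*. Over α-cells it was -0.257 (273 cells) and -0.349 (434 cells) between *Iapp* and *Gcg*. Cells in each of these correlations share a library and a total.

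Amylin RNA in excess of insulin RNA was rare in other classes. Among 3154 acinar, ductal, endothelial, fibroblast, pericyte and immune droplets of both libraries, 15 had at least 20 *Iapp* UMIs and more of them than of *Ins2*. Of these 15, *Sst* was the leading other hormone in 12, *Ppy* in 2 and *Gcg* in 1.

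**Figure D3:**
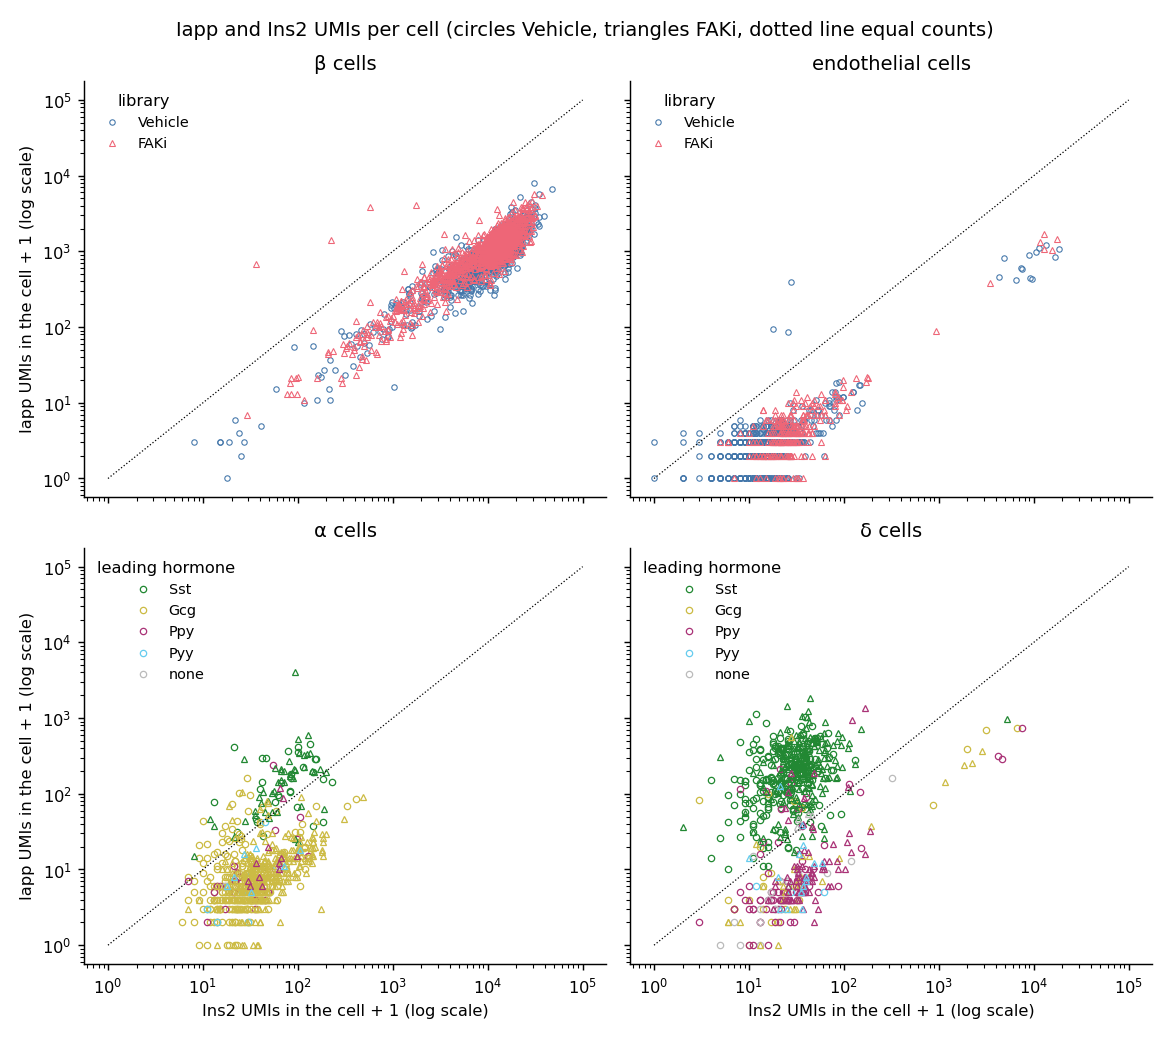
Iapp UMIs against Ins2 UMIs in each cell (both plus 1, log axes) for β-, endothelial, α- and δ-cells, with circles for Vehicle and triangles for FAKi and a dotted line at equal counts. In the α and δ panels colours give the leading other hormone. All but 4 cells of the β class, which are from FAKi, lie on or below the line, while 93.8% of Vehicle and 93.3% of FAKi Sst-led cells lie above it.

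UMIs of all 3 genes were also found in droplets of classes not named as endocrine. RNA free in the cell suspension can be counted in any droplet, but what part it had here was not tested. The classes named neither endocrine nor acinar are used as the background level. These are the ductal, endothelial, fibroblast, pericyte, macrophage, T cell and B cell classes, 7 in all. Without insulin-rich droplets they held 1797 Vehicle and 602 FAKi droplets, with a median depth of 6318 and 5604.5 UMIs. Droplets rich in other hormones were kept, among them a Vehicle T cell droplet with 15528 *Gcg* UMIs of 45748. The median droplet held 15 *Ins2*, 5 *Ins1* and 2 *Iapp* UMIs in Vehicle, and 27, 9 and 3 in FAKi. At least 1 *Ins2* UMI was found in 99.9% and 100% of them, and in 84.9% and 93.7% after thinning to 1000 UMIs, which left out 32 and 27 droplets. For *Iapp* these shares were 81.9% and 94.0%, and 29.7% and 49.4% after thinning.

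The median UMIs per droplet were alike from class to class within a library and higher in FAKi. Class medians of *Ins2* ran from 13 to 17 UMIs per droplet in Vehicle and from 25 to 33.5 in FAKi. Those of *Ins1* ran from 5 to 7 and from 8 to 11.5, and those of *Iapp* from 1 to 2 and from 2.5 to 5. These ranges of median UMIs did not overlap between the libraries. On the CPM scale the classes were less alike and the ranges overlapped, with *Ins2* from 2138 to 4629 CPM in Vehicle and from 2958 to 9630 CPM in FAKi. The median *Ins2* share of a droplet's UMIs ran from 0.176% to 0.379% and from 0.298% to 1.02%. Summed over the 7 classes, *Ins2* stood at 2648 CPM in Vehicle and 4863 CPM in FAKi, a ratio of 1.84. *Ins1* stood at 979 and 1642 CPM, a ratio of 1.68, and *Iapp* at 415 and 705 CPM, a ratio of 1.70. In the same libraries β-cells made up 1076 of 3776 and 1336 of 3183 cells, and what part that had in the difference was not tested.

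The *Ins1* to *Ins2* ratio of these droplets was 0.370 in Vehicle and 0.338 in FAKi, against 0.399 and 0.383 in β-cells. It was lower in FAKi in 7 of 7 classes, and the interval of the change lay below 1 in 5. With insulin-rich droplets kept, the ratio was lower in FAKi in 11 of all 12 classes, with fibroblasts at 1.07 times the Vehicle value as the exception. The interval lay below 1 in 10 classes.

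**Figure D4:**
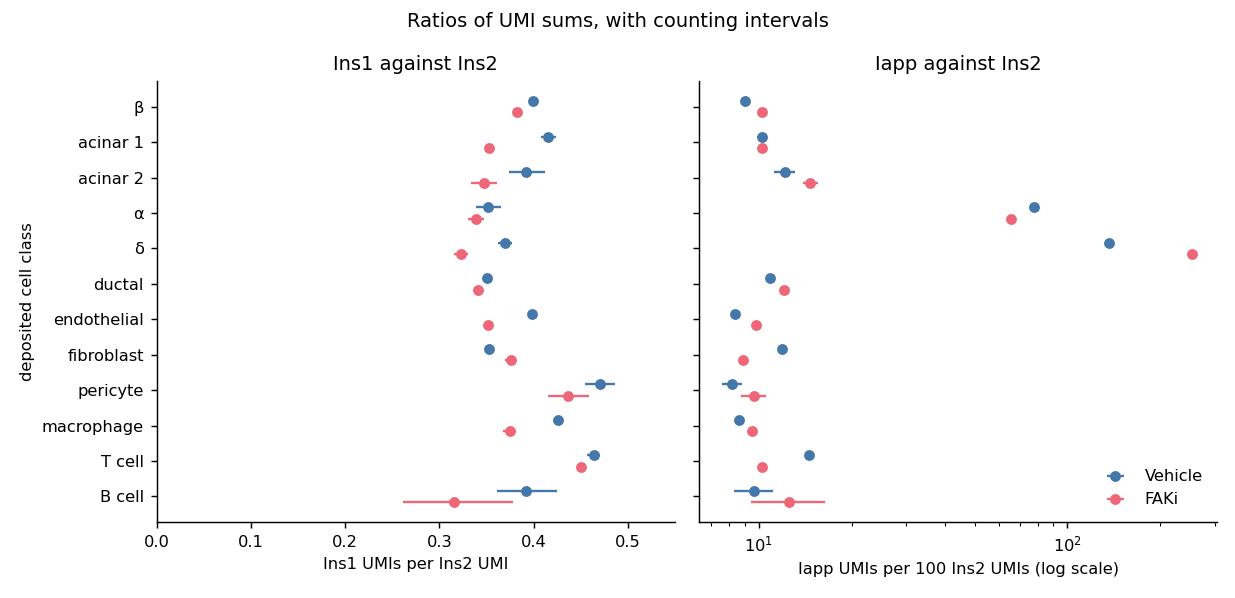
Ins1 UMIs per Ins2 UMI (left) and Iapp UMIs per 100 Ins2 UMIs (right, log axis) from sums over each class, with Vehicle in blue, FAKi in red and exact 95% counting intervals as bars. Ins1 per Ins2 is lower in FAKi in 11 of 12 classes, and Iapp per Ins2 stands apart in α-cells (77.6 and 65.5) and δ-cells (137 and 253).

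Against this background the α and δ classes as a whole were not higher by median *Ins2* share but were higher by median *Ins2* UMIs. *Ins2* took a median 0.185% of an α-cell's UMIs in Vehicle and 0.295% in FAKi, and 0.180% and 0.272% of a δ-cell's. The non-endocrine droplets held 0.227% and 0.481%. After thinning to 1000 UMIs, 83.8% and 91.2% of α-cells still had an *Ins2* UMI, against 84.9% and 93.7% of the non-endocrine droplets. α cluster 9 was higher, with a median *Ins2* share of 0.649% in 87 Vehicle and 0.915% in 168 FAKi cells and 54 and 71 *Ins2* UMIs. The class medians of the non-endocrine droplets without insulin-rich ones reached 0.379% in Vehicle and 1.02% in FAKi. Both were in the T cell class, which had only 16 such droplets in FAKi. Unthinned, the median α-cell held more, 25 and 40 *Ins2* UMIs, at a median depth of 13126 and 13263 UMIs. The median δ-cell held 20.5 and 35, at a median depth of 12671 and 13782 UMIs. The median non-endocrine droplet held 15 and 27 at its lower depth. *Iapp* of *Sst*-led cells, at 1.73% and 2.14%, lay far above the 0.0264% and 0.0582% of the non-endocrine droplets. *Iapp* of *Gcg*-led cells was above them in Vehicle, at 0.0502%, and below them in FAKi, at 0.0517%. By median UMIs the deeper *Gcg*-led cells held more in both libraries, 5 and 7 against 2 and 3. More *Iapp* than *Ins2* UMIs were found in 16 of 1797 (0.890%) and 3 of 602 (0.498%) of the non-endocrine droplets, against 12.8% and 2.49% of *Gcg*-led cells.

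Most *Ins2* UMIs of the non-endocrine classes sat in few droplets. Insulin-rich were 55 of 1852 droplets in Vehicle (2.97%, 2.24 to 3.85) and 42 of 644 in FAKi (6.52%, 4.74 to 8.71). They held 92.5% and 95.01% of the *Ins2* UMIs of these classes. The doublet caller marked 22 and 12 of them. Their median depth was 25583 and 31152 UMIs, against 6318 and 5605 for the rest. Macrophages had 11 of 129 and 5 of 55, T cells 3 of 168 and 12 of 28, and B cells 0 of 113 and 0 of 9, where a count of 0 allows shares of up to 3.21% and 33.6%. In α-cells 0 of 273 and 0 of 434 were insulin-rich, which allows up to 1.34% and 0.846%.

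Class sums depended on those droplets. In δ-cells the FAKi over Vehicle ratio was 0.544 for *Ins1* (0.530 to 0.559) and 0.623 for *Ins2* (0.614 to 0.633). Insulin-rich droplets were 9 of 328 in Vehicle and 6 of 358 in FAKi, and they held 78.0% and 48.8% of the *Ins2* UMIs. Without them the ratios were 1.32 and 1.42, and without called doublets 0.368 and 0.395. The median δ-cell held 7 *Ins1* and 20.5 *Ins2* UMIs in Vehicle, and 13 and 35 in FAKi. In the T cell class *Ins2* stood at 52238 CPM in Vehicle and 293516 CPM in FAKi, and at 3545 and 9069 CPM without insulin-rich droplets. In macrophages the *Ins1* ratio was 0.941, and 1.63 (1.48 to 1.80) without them. Counted by sums, *Ins2* was higher in FAKi in 11 of 12 classes, *Ins1* in 9 and *Iapp* in 12. Without insulin-rich droplets, all 3 genes were higher in FAKi in 9 of the 9 classes other than β and acinar. Directions of the sums also turned in single classes under other settings, with endothelial *Ins1* at 0.869 and pericyte *Ins1* and *Ins2* at 0.562 and 0.716 without called doublets, and macrophage *Ins2* and *Iapp* at 0.901 and 0.748 under 5% mitochondrial counts. α-cell *Iapp* turned from 1.17 to 0.919 without the droplet with the most *Iapp* of each library. Counted by median UMIs per droplet, *Ins2* and *Iapp* were higher in 12 and *Ins1* in 11.

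**Figure D5:**
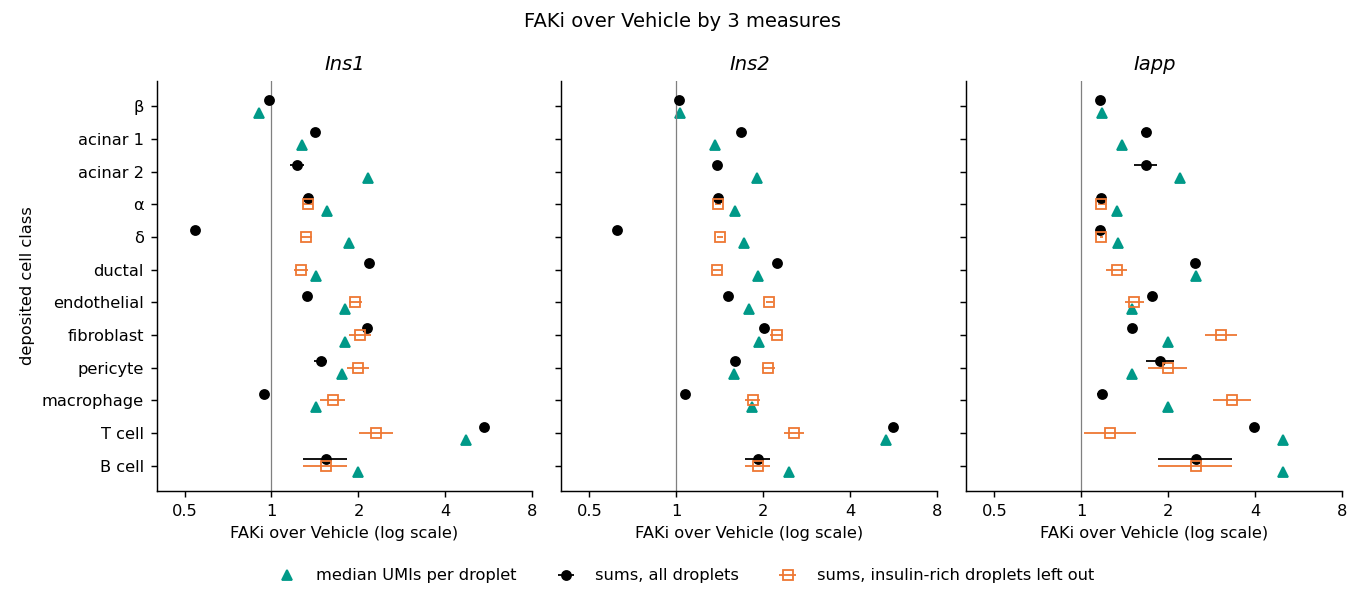
FAKi over Vehicle (log axis) in each class for Ins1, Ins2 and Iapp, with black points for CPM of UMI sums, open orange squares for the same without insulin-rich droplets (9 classes other than β and acinar) and green triangles for the median UMIs per droplet. Bars are exact 95% counting intervals. In δ-cells the sums of Ins1 and Ins2 lie at 0.544 and 0.623 and move to 1.32 and 1.42 without insulin-rich droplets.

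The class named acinar 1 held more insulin RNA than any class but β by its median droplet. It had 161 droplets in Vehicle and 297 in FAKi, with a median depth of only 1480 and 1140 UMIs. *Ins2* was its most abundant transcript in both libraries, at 103583 CPM in Vehicle and 173097 CPM in FAKi, a ratio of 1.67 (1.65 to 1.69). *Ins1* stood at 43049 and 61027 CPM, a ratio of 1.42 (1.39 to 1.44). *Iapp* stood at 10589 and 17688 CPM, a ratio of 1.67 (1.61 to 1.73). Of 370 genes with at least 100 UMIs in this class, 11.6% were more than 1.5-fold higher and 8.38% more than 1.5-fold lower, and *Ins2* and *Iapp* were past that limit while *Ins1* was not. These calls changed with the cells and the total used. *Ins2* was at 1.47 in droplets under 1000 detected genes, *Ins2* and *Iapp* were at 1.28 and 1.24 in those with at least 1000, and *Ins1* was at 1.62 both under 5% mitochondrial counts and over a total without hormone genes.

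The median UMIs per droplet differed less than the CPM of the sums. The median droplet held 129 *Ins2*, 50 *Ins1* and 13 *Iapp* UMIs in Vehicle, and 175, 64 and 18 in FAKi. *Ins2* took a median 8.07% of a droplet's UMIs in Vehicle, from 1.62% to 14.8% at the 10th and 90th percentiles, and 15.7% in FAKi, from 3.72% to 20.4%. Insulin-rich were 97 of 161 droplets (60.2%, 52.2 to 67.9) and 218 of 297 (73.4%, 68.0 to 78.3). At a threshold of 20% the counts were 21 (13.0%) and 162 (54.5%). The number of *Ins2* UMIs was only loosely tied to depth, with Spearman's rho between *Ins2* UMIs and total UMIs of 0.357 in Vehicle (161 cells) and 0.265 in FAKi (297 cells). In β-cells it was 0.980 and 0.960.

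In acinar 1 *Ins1* to *Ins2* was 0.416 in Vehicle and 0.353 in FAKi, and *Iapp* per 100 *Ins2* UMIs was 10.2 in both. The FAKi *Ins1* to *Ins2* ratio (0.349 to 0.356) lay between that of β-cells, 0.383, and that of the non-endocrine droplets without the insulin-rich ones, 0.338. The Vehicle ratio (0.408 to 0.424) lay above both, which were 0.399 and 0.370. Acinar 1 keeps its insulin-rich droplets in this comparison. Droplets with at least 1000 detected genes were 4 in Vehicle and 13 in FAKi, and among them the FAKi over Vehicle ratio of *Ins1* turned to 0.968. Their *Ins1* to *Ins2* was 0.448 in Vehicle and 0.338 in FAKi. In the whole class, 1 droplet held 22.4% of the *Ins2* UMIs in Vehicle and 12.7% in FAKi. The droplets with at least 1000 genes held 14960 of 36555 and 77438 of 127191 *Ins2* UMIs. Without them *Ins2* stood at 77345 CPM in Vehicle and 113715 CPM in FAKi. Among the 157 and 284 droplets under 1000 genes, *Ins1* to *Ins2* was 0.393 and 0.376, and the FAKi over Vehicle ratio of *Ins2* was 1.47. Regulators of the insulin genes held 3.86 UMIs per 1000 *Ins2* UMIs in Vehicle and 3.08 in FAKi, and processing genes 32.6 and 25.0. In β-cells the regulators held 4.47 and 3.87, and processing genes 34.2 and 32.2. Endothelial cells, with insulin-rich droplets kept, held 4.92 and 4.19 for regulators and 45.1 and 39.1 for processing genes. The acinar 1 regulator sums were only 141 and 392 UMIs, and 1 of the 10 genes passed the count filter.

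The class named acinar 2 held less. Its median droplet of 7931 UMIs in Vehicle and 7281 in FAKi held 38 and 72 *Ins2*, 12 and 26 *Ins1*, and 5 and 11 *Iapp* UMIs. Insulin-rich were 0 of 86 and 0 of 114 of its droplets, which allows shares of up to 4.20% and 3.18%. *Ins1* to *Ins2* was 0.392 and 0.347.

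Over the 24 groups made by class and library, the pattern of *Ins1* and *Ins2* was nearly the same, with Pearson's r of 0.998 for log2(CPM + 1). *Iapp* followed them less, at 0.779 with *Ins1* and 0.792 with *Ins2*. These groups share libraries and background RNA. Among 14089 genes, those most like *Ins1* were *Tmem215* (0.968), *B830017H08Rik* (0.960), *Prss53* (0.951), *Sytl4* (0.9499) and *Ucn3* (0.946). The same 5 genes were most like *Ins2*, at 0.966 for *Tmem215* and 0.962 for *B830017H08Rik*. *Ucn3* encodes urocortin 3, a peptide of mature β-cells, and stood at 247 CPM in Vehicle β-cells and 6.86 CPM in δ-cells. None of those 5 was among the genes most like *Iapp*, which were *Nkx6-1* (0.941), *Rasgrf1* (0.924), *Gm27033* (0.923), *Pcsk1* (0.916) and *Cntnap2* (0.916). *Nkx6-1* stood at 309 CPM in β-cells, 43.1 in δ-cells and 18.5 in α-cells of the Vehicle library, and *Pcsk1* at 250, 50.8 and 5.80 CPM.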

How the data were processed

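The authors counted UMIs with Cell Ranger, kept cells under 8% mitochondrial counts with Seurat 3.1 (mm10, per the submitters' processing notes), normalized with SCRAN, integrated with scanorama and clustered. The annotation used for counting is not given in the sources used here. The deposited values used here are raw counts and the authors' class and cluster of each cell, with the percent of mitochondrial counts as deposited. The labels give 8832 Vehicle and 8437 FAKi cells for sequencing. UMIs were summed per class and library as CPM. Levels carry exact Poisson, shares Clopper-Pearson and ratios exact conditional binomial intervals (95%). A count of 0 is given with its Clopper-Pearson upper bound. Doublets were called with scrublet in each library, at 68 and 57 cells, and kept in the main values. The intervals were run on simulated Poisson counts. This is the model they assume, so the run checks the code and not the spread between droplets. Gene models came from GENCODE M21 on GRCm38. Members and gene lists were chosen with earlier results of these data known. Named genes were the members, the lists of regulators, processing, glucose sensing, receptor and hormone genes, and for each member the 5 genes with the highest Pearson r of log2(CPM + 1) over class by library groups. Alternatives were the mean over cells, no doublets, under 5% mitochondrial counts, at least 1000 genes, thinning to 1000 UMIs, a total without hormone genes, thresholds of 5 and 20% for insulin-rich, a minimum of 20 UMIs, and Spearman or a pseudocount of 10 CPM for likeness. Leaving out insulin-rich droplets from class sums and lone droplets with the most *Iapp*, and taking acinar 1 under 1000 genes, were added after seeing the data. So were the sort by leading hormone, the β-cells poor in insulin RNA and the *Ins1* share of insulin-rich β-cells. The tally of droplets outside the endocrine classes with more *Iapp* than *Ins2* was added then too. Analyses ran in scanpy 1.11.5, pandas 2.3.3, scipy 1.17.1 and numpy 2.4.6 under Python 3.11.15, with figures from matplotlib 3.10.9.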

Additional observations from a re-analysis of the deposited data

Results flagged for a closer look

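In the δ class the summed insulin UMIs were lower in FAKi. Its FAKi over Vehicle ratio of summed CPM was 0.544 for *Ins1* and 0.623 for *Ins2*, while 4 and 7 of the 12 classes were past 1.5-fold higher. For *Ins1*, β-cells (0.983) and macrophages (0.941) were also below 1, and macrophages stood at 1.63 without insulin-rich droplets. The median δ-cell held more in FAKi, 13 against 7 *Ins1* UMIs and 35 against 20.5 *Ins2* UMIs. The difference between classes was not tested. In the δ class 9 Vehicle and 6 FAKi droplets held 78.0% and 48.8% of the *Ins2* UMIs, and 1 droplet held 20.3% in Vehicle and 19.1% in FAKi.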

How the results depend on the processing

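The ratios in β-cells kept their direction except for *Ins1*. FAKi over Vehicle of *Ins1* was 0.971 by the mean over cells, 0.987 without called doublets, 1.002 under 5% mitochondrial counts, 0.969 thinned and 1.01 over a total without hormone genes. For *Ins2* it was 1.03 by the mean over cells, 1.03 without doublets, 1.02 with at least 1000 genes and 1.06 without hormone genes in the total. For *Iapp* it was 1.19 by the mean over cells, 1.16 under 5% mitochondrial counts, 1.19 thinned and 1.20 without hormone genes in the total. *Ins1* to *Ins2* in β-cells was 0.396 and 0.375 by the mean over cells, 0.415 and 0.406 under 5% mitochondrial counts, and 0.397 and 0.375 thinned, for Vehicle and FAKi. In acinar 1, *Ins1* was 1.46 by the mean over cells, 1.62 under 5% mitochondrial counts, 0.968 with at least 1000 genes and 1.62 without hormone genes in the total. *Ins2* was 1.58, 1.90, 1.28 and 1.91 under the same settings, 1.55 thinned and 1.47 under 1000 genes. *Iapp* was 1.87 under 5% mitochondrial counts, 1.24 with at least 1000 genes, 1.91 without hormone genes in the total and 1.59 under 1000 genes. Only 4 Vehicle and 13 FAKi droplets of acinar 1 have at least 1000 genes. Insulin-rich droplets of the 7 non-endocrine classes in Vehicle were 33 without called doublets, and those of acinar 1 were 21 in Vehicle and 162 in FAKi at a threshold of 20%. In δ-cells, *Ins1* was 1.03 thinned and 1.32 without insulin-rich droplets, and *Ins2* was 1.11 by the mean over cells, 1.13 thinned and 1.42 without insulin-rich droplets, while without called doublets they were 0.368 and 0.395. In pericytes, *Ins2* was 0.716 without called doublets. In α-cells and their cluster 9, *Iapp* was 0.919 and 0.834 without the droplet with the most *Iapp* of each library, a setting added after seeing the data. With a minimum of 20 UMIs in place of 100, genes past 1.5-fold were 3.31% higher and 6.58% lower in β-cells, and 21.7% higher and 11.0% lower in acinar 1. Of the 5 genes most like each member, 4 (*Ins1*), 5 (*Ins2*) and 4 (*Iapp*) remained by Spearman's rho, and 4, 4 and 3 with a pseudocount of 10 CPM. The causes were not tested. No paired analysis was possible because each condition has 1 library. In acinar 1, 26 and 89 droplets have under 1000 UMIs.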
